A study of Mus musculus with 6 samples.

Results

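Cytoplasmic actins and the alpha and beta tubulins are the building blocks of actin filaments and microtubules. The genes described here are 10 of the 22969 gene identifiers in the count table: the actins Actb and Actg1, the alpha tubulins Tuba1a, Tuba1b, Tuba1c and Tuba4a, and the beta tubulins Tubb2a, Tubb4b, Tubb5 and Tubb6. They were taken by name, as clients of the chaperonin TRiC. RNA was sequenced from hematopoietic stem cells of C57BL/6 mouse bone marrow, sorted as lineage-negative, Sca-1+, c-Kit+, CD150+ and CD48- cells, with about 500 cells per Smart-seq2 library. The 3 control libraries came from Rbfox2-fl/fl mice, in which Rbfox2, a splicing regulator, is flanked by loxP sites and no Cre is present. The other 3 came from Vav1-cre; Rbfox2-fl/fl mice, in which Cre is expressed throughout the blood lineage. Both groups carry the floxed alleles, and no sample here carries Cre alone.

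Newly made actin and tubulin chains cannot fold unaided. Prefoldin receives the emerging chain and hands it to TRiC, a double-ring chaperonin that encloses it, and tubulin then passes through a series of cofactors that join alpha to beta chains. Cells carry several genes for nearly the same protein, called isotypes, which mix in 1 polymer. Tubulin mRNA is also controlled by its product: when free tubulin is abundant, TTC5 binds the start of the emerging tubulin chain on the ribosome and the mRNA is degraded. Actin monomer acts on transcription instead, by holding back MRTF, the coactivator of SRF, which binds the CArG box of actin and other cytoskeletal genes.

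Because some isotypes are so alike, reads from one may be counted for another. The coding sequences show how alike they are. The first 60 coding bases of the actins are given, from the GENCODE transcripts of build mm10, with capitals where Actg1 differs from Actb.
Actb: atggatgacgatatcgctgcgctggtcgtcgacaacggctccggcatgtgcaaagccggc
Actg1: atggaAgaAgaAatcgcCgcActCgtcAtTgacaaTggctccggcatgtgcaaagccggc
Over the whole reading frame of 1128 bases the actins differed at 128 bases and were 88.65% identical. Tuba1a and Tuba1b were 98.3% identical over the reading frame, with 23 differing bases, and Tuba1b and Tuba1c were 98.37% identical, with 22. Tuba4a stood apart, at 85.3% to 85.6% identity with the other 3. Most alpha tubulins end in a tyrosine that enzymes remove and restore on the microtubule, and Tuba4a is known for lacking it in its gene. The starts of the beta tubulins are given with capitals where a base differs from Tubb5, since this start encodes the residues that TTC5 reads.
Tubb5: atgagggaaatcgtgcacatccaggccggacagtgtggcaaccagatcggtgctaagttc
Tubb4b: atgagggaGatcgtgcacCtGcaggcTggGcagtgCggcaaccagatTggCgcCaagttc
Tubb2a: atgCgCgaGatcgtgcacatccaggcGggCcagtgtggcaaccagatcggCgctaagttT
Identity among the beta members, Tubb6 included, ran from 80.75% to 84.79%.

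Sharing with other genes was measured as the percentage of 50-base windows of the longest annotated transcript that occur, on either strand, in a transcript of another gene. Tubb6 shared 0% and Tubb5 0.1154% of its windows, the least of all members. Actb shared 14.22%. The other 7 members shared 48.76% to 83.06%, with Tuba1b highest. Most partners of Actb, Actg1 and the Tuba1 genes were pseudogenes, such as 14 of 18 for Actb and 13 of 20 for Tuba1b. Between members, Actb shared 1.603% of its windows with Actg1, and Actg1 1.576% with Actb. Each Tuba1 gene shared 42.52% to 59.33% with each of the others. Tubb2a shared 0.06406% with Tubb5, and Tubb5 0.03846% with Tubb2a. Tubb4b and Tuba4a shared none with another member. The shared windows of Tuba4a lay almost all in its overlap of 1379 bases with Stk16, a kinase gene on the opposite strand, whose reads cannot be told from those of Tuba4a without strand. The sources used here do not say how reads with several matches were counted.

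**Figure D1:**
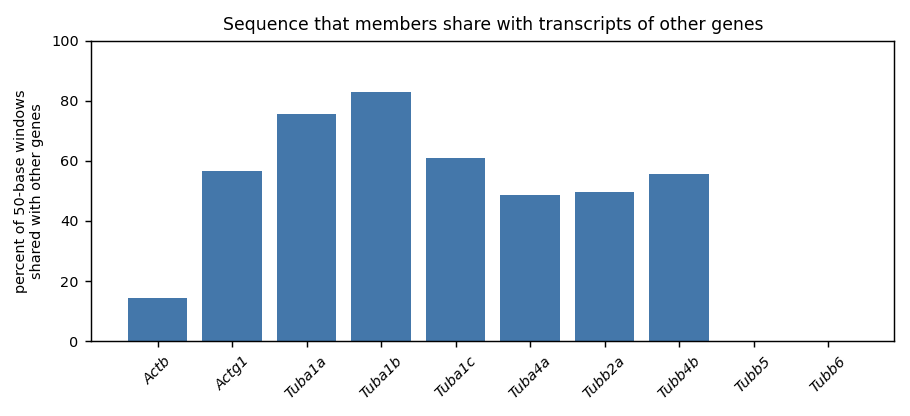
Percentage of each member's 50-base transcript windows found in a transcript of another gene (bars, from 0). Tubb6 and Tubb5 have almost no shared sequence, Actb has 14.22%, and the other 7 members lie between 48.76% and 83.06%.

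Totals were 47895459 to 55151484 counts in the control libraries and 23474895 to 35650284 in those labelled Rbfox2-deleted. Rbfox2 itself had 238, 11 and 250 counts in controls 1 to 3 and 2, 87 and 10 counts in the libraries labelled deleted 1 to 3. Control 2 and the library labelled deleted 2 thus went against their labels, so every direction given here is between libraries as labelled. Controls 1 and 3 were nearly the same library (chi-square of 3.44 per degree of freedom, against 156 to 808 for other pairs) and enter as a single sample, so n is 2 for control and 3 for the other group. The library labelled deleted 1 stood apart from all others (Spearman correlation across genes of 0.774 to 0.777). It had the fewest counts, 23474895, and the fewest genes detected, 14154 against 15950 to 17087 in the others. The female-specific Xist was high (2467 to 2821 counts) and the Y-linked Eif2s3y at 0 in the libraries labelled deleted 1 and 3, while the other 4 libraries had the reverse, so sex was not balanced between the groups. All 10 stem cell genes of the gate list were detected in each library. Summed erythroid markers were 2272 to 3052 CPM (a gene's counts scaled to a common library total) in control and 4004 to 5343 CPM in the libraries labelled deleted, mostly from Car2. Without Car2 they were 123 to 169 and 129 to 483 CPM, and Car1 was at 0 throughout. Megakaryocyte markers summed to 328 to 342 and 44.1 to 322 CPM, those of neutrophils and monocytes to 1968 to 2920 and 1698 to 1936 CPM, those of lymphoid cells to 320 to 414 and 244 to 346 CPM, and those of stroma and endothelium to 11.04 to 12.9 and 20.2 to 32.8 CPM. Single genes carried much of these sums. Without Gp9 the megakaryocyte markers summed to 154 to 194 CPM in control and 10.7 to 192 CPM in the libraries labelled deleted. Without Lyz2 those of neutrophils and monocytes summed to 517 to 839 and 445 to 549 CPM. Without Cd79b the lymphoid markers summed to 86.5 to 109.8 CPM in control and 106 to 168 CPM in the libraries labelled deleted, and without Pecam1 those of stroma and endothelium to 3.56 to 4.46 and 1.28 to 5.78 CPM. The part of depth and of these other cell types in the results was not tested. Sex was tried as a covariate, in which case the contrast between the groups rests on the library labelled deleted 2 alone. In sorted bulk RNA a change in which cells were present and a change in RNA per cell cannot be told apart.

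All 10 members could be tested, and none differed between the groups at an adjusted p under 0.05 by edgeR, which called 0% of the 12350 genes tested. DESeq2 also called none of the members, against 3.39% of all genes with an adjusted p, and limma-voom called none of the members, against 0% of genes. At an unadjusted p under 0.05 by edgeR, 2 of 10 members differed, Actg1 higher and Tuba4a lower, beside 9.89% of all genes (5.33% higher and 4.56% lower). This count depended on the samples and the scaling. It was 0 without control 2 (unadjusted p 0.0951 for Actg1 and 0.141 for Tuba4a by edgeR) and 0 with sex as a covariate (0.0514 and 0.112 by edgeR). It was 1, Actg1, without the library labelled deleted 2 or without that labelled deleted 3, and 3 without that labelled deleted 1. With DESeq2 size factors it was 1, and with upper quartile factors or no filter on low counts it was 4. Without controls 1 and 3 the log2 fold change was 1.81 for Actg1 and -1.04 for Tuba4a. The number of all genes at this level moved too. In the main fit 658 were higher and 563 lower. Without the library labelled deleted 1 these were 1457 and 1467 of 12346 genes. With sex as a covariate they were 236 and 135, and with upper quartile factors 339 and 1087. The samples of the groups did not overlap for 4 members, Actg1 and Tuba1a higher and Actb and Tuba4a lower, beside 32% of all genes (14.9% higher and 17.2% lower). The fold change lay above 0 for 6 members and below 0 for 4. The median log2 fold change, libraries labelled deleted minus control, was 0.20 over the members and 0.11 over all genes tested. In the libraries labelled deleted 1, 2 and 3 the median over members was 0.17, 0.23 and 0.05 above the control mean on the log2 scale.

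Values per library in what follows are CPM scaled by TMM factors, in the order controls 1, 2 and 3 and then the libraries labelled deleted 1, 2 and 3. Means and SDs are over 2 control samples and 3 libraries labelled deleted.

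Actb encodes beta-actin, the main cytoplasmic actin of most cells, on chromosome 5 (142903115 to 142906754, minus strand, mm10). Its levels were 7331, 8699 and 7307 CPM in control and 6739, 5835 and 5758 CPM in the libraries labelled deleted. All 3 libraries labelled deleted lay below every control, and control 2 was the highest. The means were 8008 ± 977 CPM (SD, n = 2) and 6110.5 ± 545 CPM (SD, n = 3), a ratio of 0.763. The log2 fold change was -0.39 ± 0.22 (SE), and edgeR's adjusted p was 0.680.

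Actg1 encodes gamma-actin, the other cytoplasmic actin, which differs from beta-actin by a few residues near the start of the protein. It lies on chromosome 11 (120345690 to 120348542, minus strand). Its levels were 97.7, 51.2 and 93.8 CPM in control and 190.1, 189 and 169.9 CPM in the libraries labelled deleted. Every library labelled deleted was above every control, and the 3 were close to each other, while control 2 was the lowest. The means were 73.4 ± 31.4 CPM (SD, n = 2) and 183 ± 11.4 CPM (SD, n = 3), a ratio of 2.49. The log2 fold change of 1.32 ± 0.39 (SE) had an unadjusted p of 0.0131 and an adjusted p of 0.387 by edgeR. With 56.7% of its windows shared with other genes, though 1.576% with Actb, this is also the actin whose counting is less certain.

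The upstream sequence of Actg1 is shown because actin genes are textbook SRF targets. RefSeq's promoter table (GRCm38.p6, the same assembly as mm10) held 8 of the 10 members, and the others, Actb and Tubb6, were not searched. The CArG box and the CCAAT box were searched on both strands of the 250 bases before each start. The stretch chr11:120348546-120348645, on the minus strand, covers bases 150 to 51 before the RefSeq start of Actg1 and lies outside any annotated exon. Capitals mark the CCAAT box, then the CArG box.
Actg1 upstream: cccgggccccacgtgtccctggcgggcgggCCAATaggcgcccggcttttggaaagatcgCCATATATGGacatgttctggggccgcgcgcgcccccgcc
Actg1 was the only 1 of the 8 searched with a CArG box, which 1.467% of 32851 such windows held. CCAAT was found in Actg1, Tuba1a, Tuba1c, Tubb4b (5 matches) and Tubb5 (2 matches), and in 33.85% of all windows. A match describes the letters and not a bound site.

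**Figure D2:**
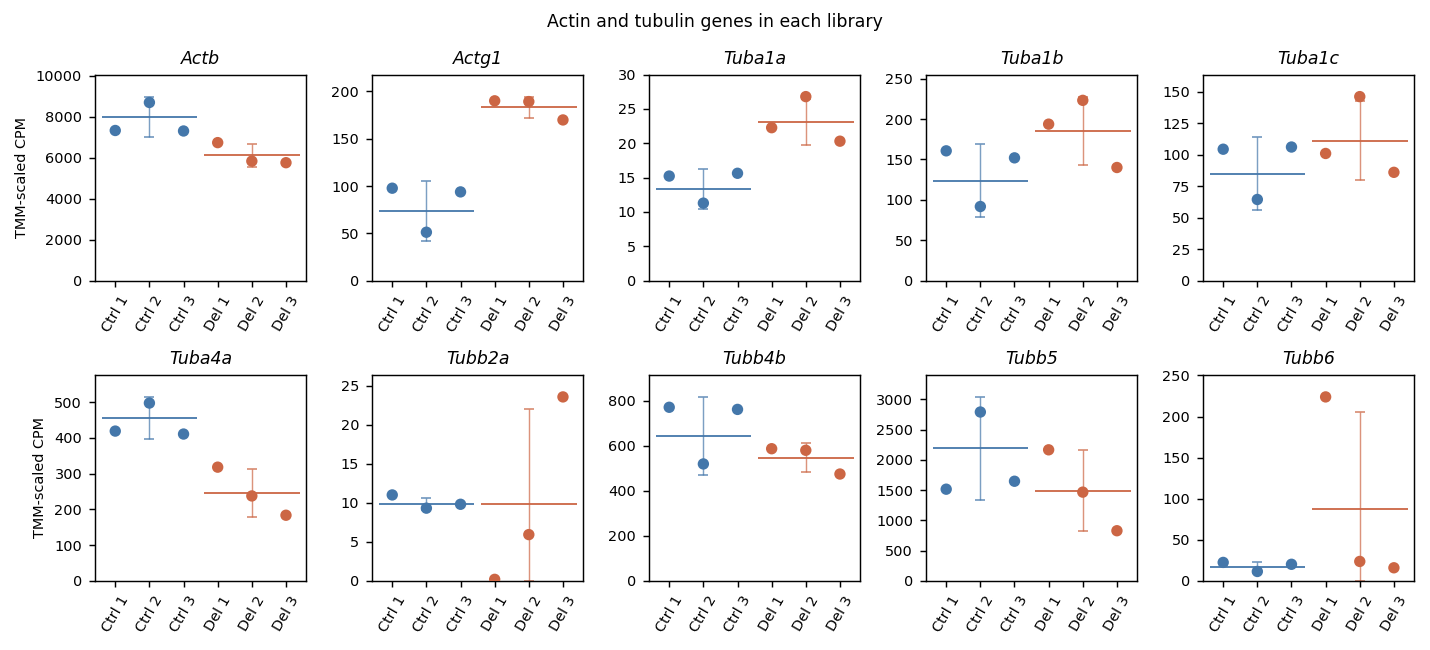
TMM-scaled CPM of each member in each library (dots; Ctrl, control; Del, labelled deleted; linear axis from 0, its range set for each gene), with the group mean (line) and SD (bar; 2 control samples, 3 libraries labelled deleted; bars are cut at 0). Actg1 and Tuba1a lie above and Actb and Tuba4a below control in all 3 libraries labelled deleted, and the high mean of Tubb6 comes from 1 library.

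Among the alpha tubulins, the fold change of Tuba4a lay below 0 and those of the 3 Tuba1 genes above it. Tuba4a is the alpha isotype known from platelets, muscle and nerve. It lies on chromosome 1 (75214228 to 75219865, minus strand). Its levels were 419, 497 and 411 CPM in control and 318, 238 and 184 CPM in the libraries labelled deleted. No library labelled deleted reached the lowest control. The means were 456 ± 58.6 CPM (SD, n = 2) and 246 ± 67.6 CPM (SD, n = 3), a ratio of 0.541. The log2 fold change of -0.89 ± 0.31 (SE) had an unadjusted p of 0.0255 and an adjusted p of 0.436 by edgeR. The overlapping gene Stk16 had 157, 162 and 153 CPM in control and 166, 172 and 182 CPM in the libraries labelled deleted without TMM scaling. On that scale every library labelled deleted was above every control, and with TMM scaling the groups overlapped. The summed megakaryocyte markers were also below every control in these libraries. Without Gp9, the highest of these markers, the groups overlapped, at 154 to 194 CPM in control and 10.7 to 192 CPM in the libraries labelled deleted. The part of these markers was not tested.

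Tuba1b, Tuba1a and Tuba1c are the broadly used alpha tubulins of dividing and developing cells, and lie close together on chromosome 15 (98931425 to 98934565, 98949837 to 98953703 and 99029891 to 99038110). Tuba1b had 161, 91.7 and 152 CPM in control and 194, 223 and 140.0 CPM in the libraries labelled deleted. The groups overlapped, because the library labelled deleted 3 fell between the controls. Its log2 fold change was 0.58 ± 0.38 (SE; adjusted p 0.739 by edgeR). Tuba1a, the isotype of developing neurons, had 15.2, 11.3 and 15.6 CPM in control and 22.3, 26.8 and 20.3 CPM in the libraries labelled deleted. It was low in all libraries, and each library labelled deleted was above every control. Its log2 fold change was 0.79 ± 0.80 (SE; adjusted p 0.886 by edgeR), an SE as large as the change itself. Tuba1c had 104, 64.5 and 106 CPM in control and 101, 146 and 86.0 CPM in the libraries labelled deleted. The groups overlapped, and the log2 fold change was 0.39 ± 0.43 (SE; adjusted p 0.898 by edgeR). Without control 2 the log2 fold change was 0.26 for Tuba1b and 0.087 for Tuba1c. These 3 genes shared 60.99% to 83.06% of their windows with other genes, each other included, so the values of each alone are uncertain.

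Among the beta tubulins Tubb5, the main isotype of dividing cells, was the most abundant. It lies on chromosome 17 (35833921 to 35838306, minus strand). Its levels were 1516, 2792 and 1648 CPM in control and 2167, 1468 and 830 CPM in the libraries labelled deleted. The spread within each group was as wide as the gap between them, with control 2 highest and the library labelled deleted 3 lowest. The means were 2189 ± 852 CPM (SD, n = 2) and 1488 ± 669 CPM (SD, n = 3), and the log2 fold change was -0.56 ± 0.45 (SE; adjusted p 0.819 by edgeR). Without control 2 the log2 fold change was -0.088.

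Tubb4b, a beta isotype found in most tissues and in cilia, lies on chromosome 2 (25222160 to 25224702, minus strand). It had 771, 519 and 761 CPM in control and 587, 580 and 474 CPM in the libraries labelled deleted. The low control 2 fell among the libraries labelled deleted, and the log2 fold change was -0.23 ± 0.27 (SE; adjusted p 0.903 by edgeR). Without controls 1 and 3 the log2 fold change was 0.046.

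Tubb6, a divergent beta isotype known to weaken microtubules when abundant, lies on chromosome 18 (67390717 to 67402749, plus strand). It had 22.5, 11.5 and 20.2 CPM in control and 224, 23.7 and 15.99 CPM in the libraries labelled deleted. The library labelled deleted 1 was far above the other 5, and the library labelled deleted 3 lay within the controls. The log2 fold change was 2.42 ± 1.29 (SE; adjusted p 0.645 by edgeR), without that library it was 0.27, and with sex as a covariate 0.53. Tubb2a, on chromosome 13 (34074274 to 34078007, minus strand), is a beta isotype of neurons and platelets. It had 11.03, 9.33 and 9.83 CPM in control and 0.202, 5.94 and 23.6 CPM in the libraries labelled deleted, where the library labelled deleted 1 held 4 counts. Its groups overlapped and its log2 fold change of 0.0089 ± 1.68 (SE; adjusted p 0.999 by edgeR) was far smaller than its error.

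**Figure D3:**
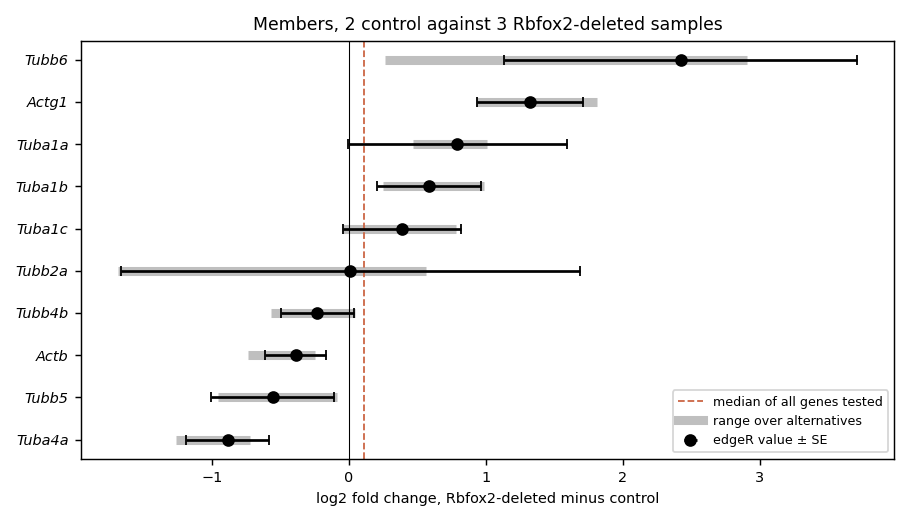
Log2 fold change of each member, libraries labelled deleted minus control (points, edgeR estimate; bars, SE), beside the median over all genes tested of 0.11. Actg1 and Tuba4a are the members with an unadjusted p under 0.05, and Tubb6 and Tubb2a have the widest errors.

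Levels were compared between genes per kilobase of the longest annotated transcript. Their order may depend on how reads with several matches were counted, which is not known. Tubb5 shared 0.1154% of its windows with other genes, Actb 14.22%, Tuba4a 48.76%, Actg1 56.7% and Tuba1b 83.06%. In control, Actb stood at 4171 ± 509 CPM per kilobase (SD, n = 2), above Tubb5 at 827 ± 322, Tubb4b at 402 ± 109 and Tuba4a at 160 ± 20.6 CPM per kilobase. Below these came Tuba1b (71.1 CPM per kilobase), Tuba1c (42.8 CPM per kilobase) and Actg1 (37.6 CPM per kilobase), each of which overlapped the next of the 3 between samples. Tubb6, Tuba1a and Tubb2a were lowest, at 6.12 to 9.32 CPM per kilobase, and each again overlapped the next. In the libraries labelled deleted, Actb, Tubb5 and Tubb4b kept the first 3 places, while Tuba1b (106 CPM per kilobase) and Actg1 (93.8 CPM per kilobase) stood before Tuba4a (86.8 CPM per kilobase). There, Actb and Tubb5 did not overlap, nor did Tubb4b and Tuba1b, and all other neighbours did.

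The share of a gene within its own class needs no scaling between libraries. Actg1 made up 1.29%, 0.575% and 1.25% of actin per kilobase in control and 2.70%, 3.09% and 2.82% in the libraries labelled deleted. Actb therefore made up at least 96.9% of the actin counts per kilobase in every library. Actg1 shared 56.7% of its windows with other genes, against 14.22% for Actb. The part of shared sequence in these and the following shares was not tested. Tuba4a made up 49.0%, 65.7% and 49.2% of alpha tubulin in control and 39.1%, 27.9% and 32.4% in the libraries labelled deleted. In control 1 and 3 it was about level with the 3 Tuba1 genes together, in control 2 above them, and in each library labelled deleted below them. Tuba1b, with 30.6%, 19.7% and 29.7% of alpha tubulin in control, had 38.8%, 42.6% and 40.2% in the libraries labelled deleted. Tuba1a had 2.81%, 2.35% and 2.95%, then 4.31%, 4.95% and 5.64%. Tubb6 had 1.19%, 0.470% and 1.03% of beta tubulin, then 9.70%, 1.44% and 1.43%. The groups did not overlap for these 5 shares, nor for that of Actb, which mirrors that of Actg1. The CPM of Tuba1b and Tubb6 did overlap. The 32% of all genes without overlap refers to CPM, and no such background was computed for shares. Shares within a class are not independent, since one falls when another rises. The shares of Tuba1c, Tubb5, Tubb4b and Tubb2a overlapped between the groups. Tubb5 made up 53.3%, 75.8% and 55.7% of beta tubulin in control and 62.3%, 59.3% and 49.4% in the libraries labelled deleted.

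All 10 members together took 1.05%, 1.19% and 1.06% of all counts in control and 0.889%, 0.944% and 0.898% in the libraries labelled deleted. The actins took 0.7496%, 0.815% and 0.747%, then 0.584%, 0.651% and 0.692%, so that the groups did not overlap. No background over all genes was computed for such totals. The tubulin members took 0.305%, 0.372% and 0.315%, then 0.305%, 0.293% and 0.207%, with the library labelled deleted 1 level with control 1.

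**Figure D4:**
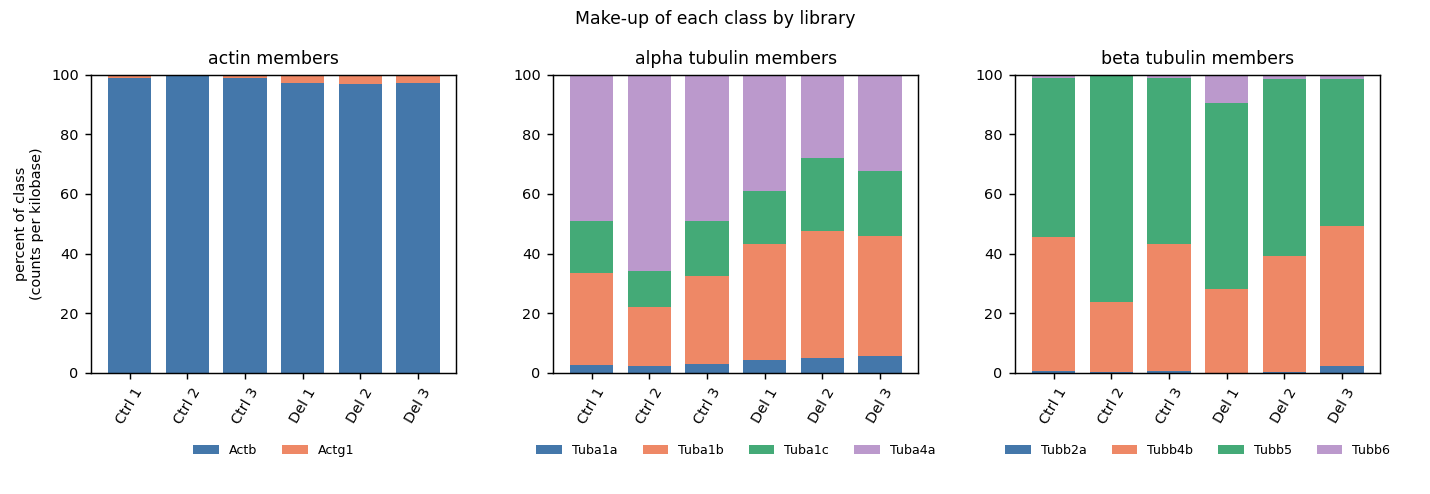
Make-up of the actin, alpha tubulin and beta tubulin classes in each library, as percent of the class total of CPM per kilobase. Tuba4a takes 49.0% to 65.7% of alpha tubulin in control and 27.9% to 39.1% in the libraries labelled deleted.

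Of the other 16 actin and tubulin genes, 9 had enough counts to be tested and 0 had an unadjusted p under 0.05 by edgeR or a call by DESeq2. Tubg1, the gamma tubulin that seeds microtubules, had 67.8, 67.6 and 65.6 CPM in control and 269, 75.9 and 37.0 CPM in the libraries labelled deleted. Tubb3, the beta tubulin of neurons, had 3, 0 and 2 counts in control and 2094, 3 and 1 counts in the libraries labelled deleted, and was not tested. Its neighbours on chromosome 8 were looked up after Tubb3 was seen. Mc1r had 1 count in the library labelled deleted 1 and 1 to 7 counts in the other 5. Def8 had 63.6, 61.0 and 63.2 CPM in control and 118, 131 and 150 CPM in the libraries labelled deleted, without TMM scaling, so it was above control in all 3 of these. That same library had 1 count of Tuba8, against 895 to 1758 in the other 5, and 0 of Tubb4a. It is also the library with the fewest counts and genes detected, and that in which Tubb6 was high and Tubb2a nearly absent. Tubb4a had 300, 155 and 340 counts in control and 0, 4 and 220 in the libraries labelled deleted. The muscle actin Acta1 was low throughout, at 4.29 to 6.02 CPM. Tubb1, the beta tubulin of platelets, had at most 2 counts in any library.

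The machinery that folds these proteins was examined by counts and medians over gene lists. Over all genes tested, 53.5% had a fold change above 0, 9.89% an unadjusted p under 0.05 by edgeR, and the median log2 fold change was 0.11. All 8 TRiC subunits had a fold change above 0, with a median log2 fold change of 1.503, and 6 had an unadjusted p under 0.05 by edgeR. For 7 of the 8 every library labelled deleted was above every control, as for 14.9% of all genes tested. The exception was Cct2, which had 39.4, 18.04 and 38.2 CPM in control and 18.6, 66.8 and 61.5 CPM in the libraries labelled deleted. Pairs of averages here are means ± SD for control (n = 2), then for the libraries labelled deleted (n = 3). Cct3 averaged 161 ± 16.4 and 484 ± 9.68 CPM, and Cct8 averaged 168 ± 12.4 and 434 ± 14.7 CPM. Of the 6 prefoldin subunits, 5 lay below control, with a median of -0.87, and 2 lower had an unadjusted p under 0.05. Pfdn5 had 760, 974 and 741 CPM in control and 580, 396 and 339 CPM in the libraries labelled deleted. Pfdn2 averaged 193 ± 55.4 and 73.7 ± 27.3 CPM. No gene of these or the following lists passed edgeR's adjusted threshold. DESeq2 called 2 TRiC subunits, Cct3 and Cct8 (adjusted p of 0.00137 and 0.00691), beside 3.39% of all genes with an adjusted p. Of 11 cofactors of TRiC and tubulin, 3 had an unadjusted p under 0.05, all lower: Arl2, a GTPase of the dimer assembly machine (222 ± 88.1 and 92.0 ± 28.9 CPM), Txndc9, a TRiC cofactor (215 ± 8.90 and 103 ± 40.4 CPM), and Tbcb, which takes up alpha tubulin (360 ± 47.1 and 202 ± 68.0 CPM). Ttc5 had 112, 60.1 and 111 CPM in control and 80.9, 182 and 217 CPM in the libraries labelled deleted. These overlapped, with a log2 fold change of 0.90 ± 0.54 (SE; adjusted p 0.698 by edgeR).

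Of 20 tested genes of actin monomer binding and filament turnover, 14 lay above control and the median log2 fold change was 0.63. Pfn1, the profilin that feeds monomers to growing filaments, had 3282, 4990.4 and 3300.4 CPM in control and 2387, 2377 and 2289 CPM in the libraries labelled deleted (log2 fold change -0.82 ± 0.25, SE). Capza2, a subunit of the capping protein, averaged 35.5 ± 10.2 and 134 ± 24.6 CPM and was the only gene of this list that DESeq2 called (adjusted p 0.0131). Dstn, which severs filaments, averaged 34.9 ± 0.337 and 88.9 ± 24.1 CPM. In the 22 regulators of microtubules the median was 0.04 and 1 gene had an unadjusted p under 0.05. This was Stmn1, which binds free tubulin dimers, at 1577, 1651 and 1617 CPM in control and 969, 863 and 628 CPM in the libraries labelled deleted (log2 fold change -0.99 ± 0.26, SE). The SRF and MRTF axis (SRF, its MRTF coactivators and targets, members left out) held 17 tested genes. Of these, 15 lay above control, against 53.5% of all genes, with a median of 0.92. For 5 of the 17 every library labelled deleted was above every control, as for 14.9% of all genes tested. For 1 every such library was below, as for 17.2% of all genes tested. For the rest the groups overlapped. Among these was Srf itself, with a log2 fold change of 0.16 ± 2.06 (SE) and 0 counts in the library labelled deleted 1. Tpm3, a tropomyosin that coats actin filaments, averaged 337 ± 12.8 and 705 ± 74.8 CPM, and Cnn2, a calponin, averaged 236 ± 30.3 and 448 ± 136 CPM. Those were the 2 genes of this list with an unadjusted p under 0.05 by edgeR. Actb, a textbook target of SRF, had a log2 fold change of -0.39 ± 0.22 (SE). The part of SRF in these values was not tested. Each list was chosen by gene function, with earlier results of these data known. Its counts describe it without a test of the list.

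**Figure D5:**
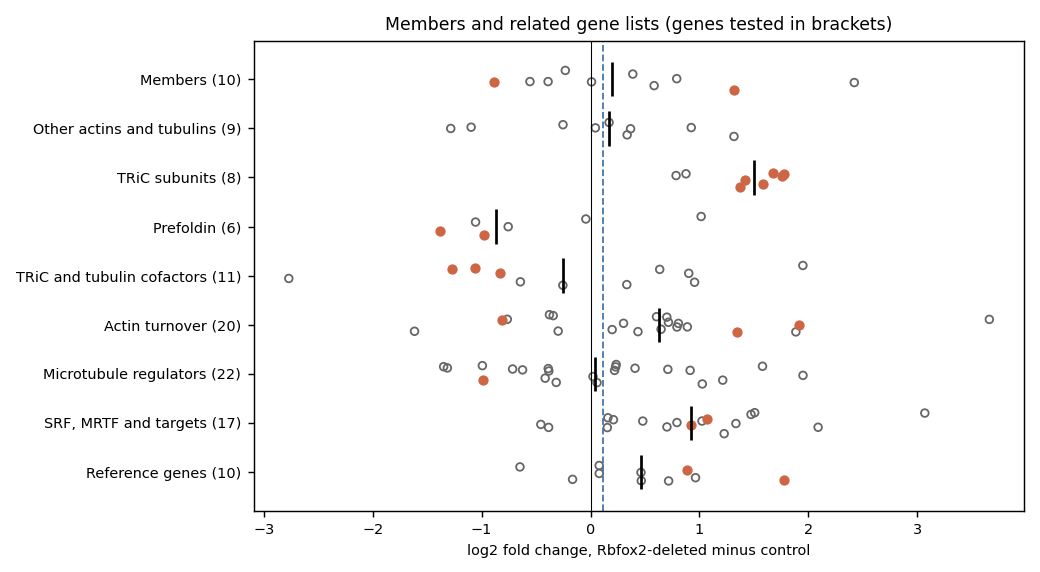
Log2 fold changes (libraries labelled deleted minus control, edgeR estimates) of the tested genes of each list (dots) with the list's median (line). The TRiC median is 1.503, the prefoldin median -0.87 and that of the members 0.20, against 0.11 over all genes.

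The genes whose profile over the 5 samples was most like that of Actb were Brms1, Guk1, Rpl31, Rab2a and Rpl38, with root mean square differences of 0.0423 to 0.0638 on the log2 scale after centring, among 3535 genes of at least 50 CPM on average. For Tubb5 they were Apip, Hypk, Eci1, Med21 and Ptrh2, at 0.122 to 0.154. With 5 samples, close profiles describe these libraries only.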

How the data were processed

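The deposited values were raw counts for each gene, which the authors left unnormalized. Their processing notes, per the submitters, list Trimmomatic 0.39 for trimming, featureCounts, DESeq2 1.36.0 and the build mm10. No source used here names the aligner, the annotation, the strand setting or the treatment of reads with several matches. Smart-seq2 carries no molecular identifiers and no strand. Rows with the same identifier were added up (134 rows, 0.449% of counts). Controls 1 and 3 were summed, although the planned test had 6 samples. The labels give each library a control or mutant mouse and a replicate number, and do not say whether replicates are separate mice. The p-values reflect the spread between these samples alone.

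The test was edgeR's quasi-likelihood test (version 4.0.16, R 4.3.3), two-sided, with TMM scaling. filterByExpr used at least 10 counts per gene and 15 in total and kept 12350 genes, over which Benjamini-Hochberg adjustment ran at a threshold of 0.05. The script was tested on simulated data. SE is the fold change over the square root of F. DESeq2 1.42.0 and limma 3.58.1 were among 19 alternatives. Members and lists were chosen with earlier results of these data known. Genes were named by rule: all members, other actin and tubulin genes with at least 10 counts in a library, the 3 genes of each list with the smallest p, Ttc5, and the 5 genes most like Actb and Tubb5. Not all of them are printed. Tubb1, Stk16, Cct2, Mc1r and Def8 were named after their values were seen. Shared windows, coding identity and motifs came from GENCODE transcripts and RefSeq promoters. Coding sequences of the alpha tubulins are not reported here.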

Additional observations from a re-analysis of the deposited data

How the results depend on the processing

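With 2 control samples against 3 and a common coefficient of biological variation of 104%, small changes in single genes could not be detected. None of the 10 members was called under any of the 19 alternatives, while over all genes DESeq2 called 478 against 0 by edgeR. Of 189 fold changes of single members under alternatives, 174 kept their direction and 15 reversed. Actb, Tuba4a and Tubb5 stayed below control and Actg1, Tuba1a, Tuba1b and Tubb6 above it in all 19. Log2 fold changes ran from 0.92 to 1.81 for Actg1 (adjusted p from 0.0894), from -1.26 to -0.73 for Tuba4a (from 0.0689), from -0.74 to -0.25 for Actb, from -0.96 to -0.088 for Tubb5 and from 0.27 to 2.91 for Tubb6. The lowest adjusted p of Actg1 and of Tuba4a came without the library labelled deleted 1.

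The members' median log2 fold change, 0.20, became -0.065 with upper quartile factors (which moved the median of all genes from 0.11 to -0.20), 0.021 with limma-voom, 0.062 with no filter and 0.035 with a length correction. Leaving out samples gave 0.022 (without control 2) to 0.41 (without controls 1 and 3), with 0.35 without the library labelled deleted 1. Tubb2a reversed to -0.033 with DESeq2 size factors in edgeR, -0.026 with DESeq2, -0.20 with upper quartile factors, -1.39 with limma-voom, -0.10 with no filter, -0.011 with 6 separate libraries, -0.73 with sex as a covariate and -0.057 with a GC correction. Leaving out samples gave -1.69 to 0.56 for Tubb2a, including -0.022 and -0.043 without control 3 and control 2. Tubb4b reversed to 0.046 without controls 1 and 3. The cause was not tested.

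Deviations of same-numbered libraries correlated at -0.044, -0.015 and 0.047. The controls that were summed were nearly the same library, so these correlations cannot tell whether replicate numbers pair the samples. With the replicate block and 6 libraries the members' median was -0.0019 and Tubb2a was at -1.23. With the block and a length correction the median was -0.20, Tubb2a was at -1.28 and Tuba1c reversed to -0.050. Shares within a class were also computed without dividing by length and without the library labelled deleted 1, both chosen after seeing the data. In 7 of 30 cases they moved by more than the SD, among them Tuba4a in the libraries labelled deleted without dividing by length. Tuba1c separated the groups by counts only.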

Other observations

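Beta-actin is often used to normalise other transcripts, so the genes commonly used that way were compared with it. Of 10 such genes tested, 8 lay above control in the libraries labelled Rbfox2-deleted, with a median log2 fold change of 0.46, and 2 had an unadjusted p under 0.05 by edgeR. Over all genes tested, 53.5% lay above control, the median was 0.11 and 9.89% had an unadjusted p under 0.05. Pgk1, a glycolytic enzyme, had 46.4, 48.1 and 51.5 CPM in control and 271, 124 and 103 CPM in the libraries labelled deleted. Gusb, a lysosomal enzyme, had 67.7, 59.6 and 68.1 CPM in control and 118, 120.3 and 114 CPM in the libraries labelled deleted. B2m, the light chain of MHC class I, was below control, as was Actb: it had 10952.8, 12738 and 11385 CPM in control and 9908, 6405 and 6574 CPM in the libraries labelled deleted. For these 3 genes the groups did not overlap, as for 32% of all genes tested, and none of the 3 passed edgeR's adjusted threshold.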
